A study of Mus musculus with 9 samples.

Results

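The Glis3 peaks described here lay in intergenic DNA more than 100 kb from any gene start. They were the 921 of 21254 peaks (4.33%) of a Glis3 binding experiment in mouse islets whose midpoint fell outside every gene span of the study's count table and over 100 kb from the nearest 5' end of such a span (mouse build mm10). Peaks that stood in a chain of at least 3 distal peaks, each within 12500 bp of the next and over 1 kb from a gene start, were left out, which removed 68 further peaks beyond 100 kb. The rule used positions only and no expression value. The innermost peak kept was 100008 bp from a 5' end, and the nearest peak on the other side of the limit was 99973 bp away. Each peak was a 200 bp interval without a score, so peaks could not be ranked by height.

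The binding experiment was chromatin immunoprecipitation followed by sequencing (ChIP-seq), done with an antibody against GFP on hand-picked pancreatic islets of 8-week-old Glis3-eGFP mice, which carry Glis3 fused to the green fluorescent protein. It gave 1 list of peaks, so binding had no replicate, and the matching input was not analysed here. RNA was sequenced from islets of other mice at 4 weeks of age: 4 controls of genotype Glis3fl/fl (WT 1 to 4), which carry the conditional allele and no Cre, and 3 labelled knockouts of genotype Pdx1-Cre;Glis3fl/fl (KO 1 to 3). Pdx1-Cre acts in the pancreatic lineage, and no group carried it without the conditional allele, so effects of Cre and of the deletion cannot be told apart. The binding mice were 4 weeks older than the RNA mice.

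The Glis3 protein is a transcription factor with Krüppel-like zinc fingers, found in pancreas, thyroid and kidney. In islets it is known as an activator of the insulin gene, and mutations in it cause neonatal diabetes. Transcription factors bind both promoters and distal elements. A distal element can act on a promoter over long distances through folding of chromatin, often past a nearer gene, so the gene next to a distal peak need not be its target. Large intergenic stretches of this kind often lie beside genes of developmental regulators, and within them distal enhancers control where and when those genes are used.

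For some of these peaks part of the sequence can be shown, because 21 of the 921 (2.28%) overlapped the start window of a RefSeq transcript (GRCm38.p6, the assembly of mm10; 250 bases before to 50 after the start, 32817 windows in all) that has no gene span in the count table. Of the 21, 17 touched starts of long noncoding RNA genes and 4 touched starts of genes that RefSeq lists as protein coding. The shared bases below are those that lie both in the peak and in the window, printed 5' to 3' on the plus strand. The first 5 were picked because a gene beside the peak is described further on: chr9:41890500-41890585 past the 3' end of Sorl1, chr11:31169797-31169983 in the gap beside Stc2, chr11:18877780-18877860 just past the 3' end of Meis1, and chr6:99864840-99865014 and chr6:100163275-100163383 at the 2 outer ends of the peaks between Prok2 and Rybp. The last 2, chr5:118380869-118380973 and chr12:21543457-21543656, were picked because they hold the letters AGGGGGC, which are part of the binding motif of the insulator protein CTCF and are set in capitals.
Gm40513: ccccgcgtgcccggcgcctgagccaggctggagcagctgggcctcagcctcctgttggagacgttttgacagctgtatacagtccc
Gm40822: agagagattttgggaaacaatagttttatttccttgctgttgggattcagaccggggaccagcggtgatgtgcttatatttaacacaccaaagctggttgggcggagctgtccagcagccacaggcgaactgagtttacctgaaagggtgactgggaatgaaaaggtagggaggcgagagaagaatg
8430419K02Rik: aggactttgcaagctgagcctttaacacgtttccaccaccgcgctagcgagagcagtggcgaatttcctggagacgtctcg
Gm33143: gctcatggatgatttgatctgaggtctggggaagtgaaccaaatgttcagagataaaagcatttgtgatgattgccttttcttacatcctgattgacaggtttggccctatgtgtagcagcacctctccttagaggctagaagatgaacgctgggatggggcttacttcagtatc
Gm33448: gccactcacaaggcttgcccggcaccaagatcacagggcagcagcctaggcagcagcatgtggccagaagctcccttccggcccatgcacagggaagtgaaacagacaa
Gm30604: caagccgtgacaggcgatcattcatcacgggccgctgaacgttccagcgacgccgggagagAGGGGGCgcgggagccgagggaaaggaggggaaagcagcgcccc
LOC115487949: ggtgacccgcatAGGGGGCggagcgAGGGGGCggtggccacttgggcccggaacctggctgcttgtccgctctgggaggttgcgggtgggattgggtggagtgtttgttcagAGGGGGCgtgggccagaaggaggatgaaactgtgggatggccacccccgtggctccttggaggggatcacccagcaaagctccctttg

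The shared bases had a GC content of 37.9% to 69.8%, with a median of 59.8% over 24 windows. AGGGGGC, read on both strands, stood in 10 of these 24 windows (41.7%), against 17.0% of the 6809 windows touched by a Glis3 peak of any class and 10.6% of all windows. The 10 windows belonged to 7 peaks, and in 3 peaks the letters lay inside the shared bases. Several windows share 1 peak, so they are not independent, and the shares are a description. Of the letters searched as Glis or Gli motifs, TGGGGGGT stood in 1 window (4.17%, against 1.52% of all windows) and TGGGAGGC and GACCACCCA in none (2.63% and 0.253% of all windows), and no shared stretch of a peak held any of the 3. The homeodomain letters TTAATTA stood in 3 windows (against 3.08% of all), and the GATA letters AGATAA in 4 (16.7%, against 11.2% of all). With 21 of 921 peaks covered, these counts describe only the peaks at RefSeq starts.

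Most of the peaks were within 500 kb of a gene start. The distance to the nearest 5' end ran from 100.008 to 1842 kb, with a median of 183.5 kb and quartiles of 134.9 and 284.0 kb. In 517 peaks (56.1%) it was 100 to 200 kb, in 338 (36.7%) 200 to 500 kb, in 54 (5.86%) 500 to 1000 kb and in 12 (1.30%) over 1000 kb. A gene's body could lie much closer than its start, since a 3' end often faced the peak: 209 peaks (22.7%) were within 100 kb of the edge of a gene span, 101 (11.0%) within 50 kb and 20 (2.17%) within 10 kb. The peaks were also sparse. The next Glis3 peak of any class was 80.6 kb away in the median, against 18 kb for intergenic peaks 1 to 100 kb from a start and 17.7 kb for peaks within 1 kb of a start. Chains were left out by the rule, which by itself raises this spacing, but 413 of the 921 had no other peak within 100 kb and 125 had one within 12500 bp.

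**Figure D1:**
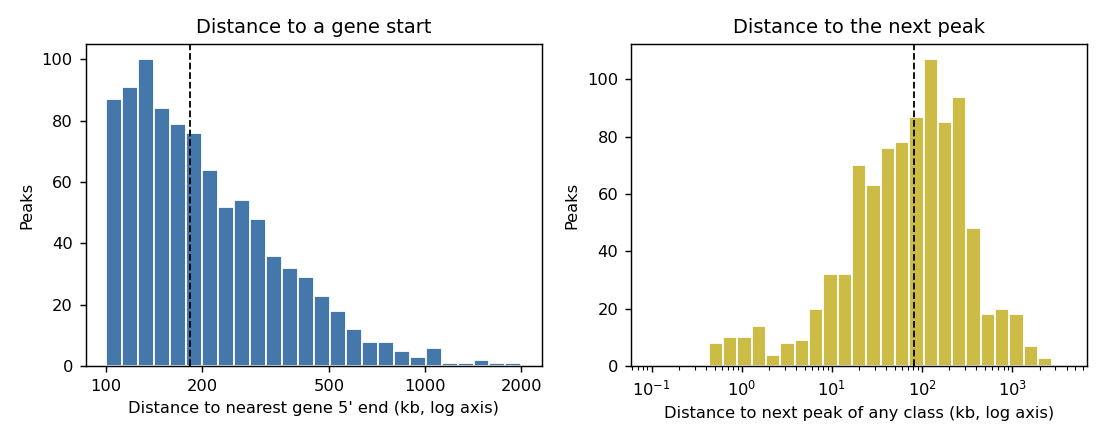
Distance from each of the 921 peaks to the nearest gene 5' end (left) and to the next Glis3 peak of any class (right), in kb on log axes, with the number of peaks per bin on the y axes and dashed lines at the medians of 183.5 and 80.6 kb. Counts fall off with distance from 100 kb outwards on the left, where the rule sets the lower limit, and the distances to the next peak reach from under 1 kb to over 1000 kb.

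The peaks did not cover all the wide gaps between genes. A wide gap is here the DNA between 2 neighbouring gene spans that holds at least 1 position over 100 kb from every 5' end. The chromosomes had 2165 such gaps, of which 546 (25.2%) held a peak of the kind described here and 1619 did not. Some of the 1619 held Glis3 peaks of other classes. Their eligible DNA came to 740 Mb, or 28.9% of the sequence between the first and last genes, with 1.24 peaks per Mb, against 8.28 peaks of all classes per Mb over the whole of that sequence. Gaps with a peak were longer (median 478 kb) than gaps without one (265 kb). A single peak was found in 357 gaps, 2 in 101, at least 3 in 88 and at least 5 in 23. By chromosome the density was lowest on X, with 20 peaks (0.327 per Mb), and highest on chromosome 13, with 75 peaks (2.26 per Mb), while chromosome 4 had the most peaks (77). Chromosome X also had the fewest Glis3 peaks of all classes (391). The far peaks made 5.12% of those on X and 8.21% of the 914 on chromosome 13, against 4.33% of all peaks.

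The 6 gaps with most peaks bordered genes of transcription and chromatin regulators among others. The gap of 758 kb between A930031H19Rik and Ptpru, a receptor tyrosine phosphatase gene, on chromosome 4 held 11 peaks over 547 kb. The gap of 1442 kb between Zfp608, a zinc finger gene, and Gramd3 on chromosome 18 held 9. The other 4 held 8 peaks each: Eipr1 to Myt1l on chromosome 12 (661 kb), Klf4 to Actl7b on chromosome 4 (1208 kb), Prok2 to Rybp on chromosome 6 (502 kb) and H2al1j to Bcor on chromosome X (709 kb). Myt1l encodes a zinc finger factor of neurons, Klf4 a Krüppel-like factor, Rybp a subunit of Polycomb repressive complex 1 and Bcor a corepressor of a related complex. Counting Glis3 peaks of any class, the 6 gaps held 19, 12, 9, 11, 16 and 9 in the order given. Median spacing, with peaks of other classes left out, was smallest between Prok2 and Rybp (28.6 kb) and largest between Zfp608 and Gramd3 (115 kb).

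**Figure D2:**
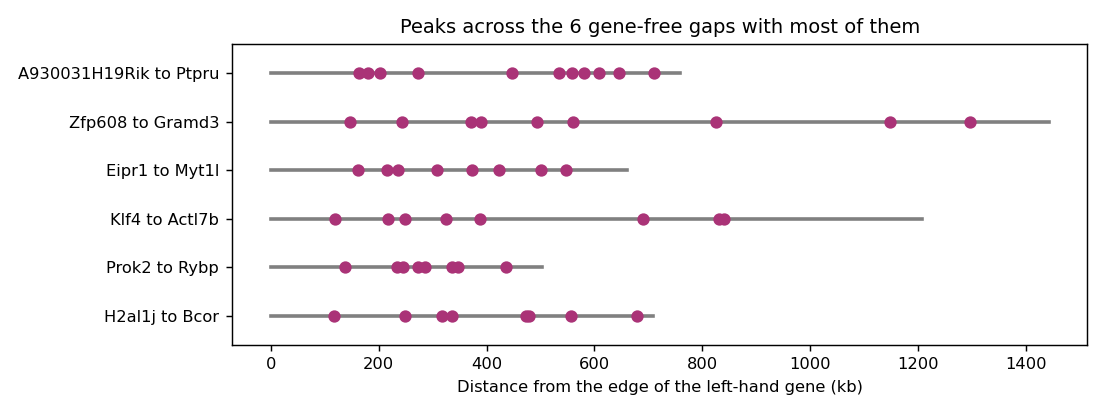
Position of the peaks beyond 100 kb (points) along the 6 gaps with most of them, in kb from the edge of the left-hand gene; each grey line is the length of the gap between the 2 named genes. The 11 peaks between A930031H19Rik and Ptpru and the 8 between Prok2 and Rybp are packed closer than the 9 between Zfp608 and Gramd3.

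The 5 peaks farthest from a gene start lay over 1000 kb from one. The farthest, chrX:131846854-131847053, was 1842 kb from the 5' end of Pcdh19, a protocadherin gene, with the formin gene Diaph2 on its other side. A peak on chromosome 3 (chr3:43352908-43353107) was 1610 kb from D3Ertd751e, and one on chromosome 1 (chr1:102628170-102628369), between Gm20268 and the cadherin gene Cdh20, was 1473 kb from a start. A pair on chromosome 2 (chr2:47372779-47372978 and chr2:47429929-47430128) was 1441 and 1384 kb from Acvr2a, an activin receptor gene. The RefSeq starts used put this pair at only 461 and 404 kb and the first 3 at 1841, 1610 and 1366 kb. None of the genes tested beside them passed the test: Acvr2a (log2 −0.11, edgeR adjusted p = 0.785), D3Ertd751e (0.08, 0.782), Diaph2 (0.09, 0.819) and Pcdh19 (0.36, 0.767). The log2 values of Acvr2a and Pcdh19 changed sign under some alternatives, given in the closing section. Cdh20 had 20 control counts and 13 labelled knockout counts, 2610316D01Rik had 8 labelled knockout counts and no control count, and 1700019E08Rik and Gm20268 had no count.

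The label intergenic held against the gene spans of the count table but not against every RefSeq gene. By RefSeq, 205 of the 921 peaks (22.3%) lay inside a gene, 160 (17.4%) inside a long noncoding RNA gene and 44 (4.78%) inside a protein coding gene. In 29 of them (3.15%) the RefSeq gene was a longer model of the flanking gene itself. Bach2, Gse1 and Samd5 each held 3 such peaks, Tenm3, Dab1 and B3galt1 held 2 each, and Pcdh15, Klf12 and Rasgrf2 were among those with 1. Over the 875 peaks for which RefSeq starts were used (the 46 on chromosome 18 were not analysed here), 40 (4.57%) were within 1 kb of a RefSeq start, 132 (15.1%) within 10 kb and 396 (45.3%) beyond 100 kb, with a median of 80.0 kb. Intergenic peaks 1 to 100 kb from a start were inside a RefSeq gene in 31.0%, within 1 kb of a RefSeq start in 8.91% and beyond 100 kb in 3.52%. The RefSeq starts used were not complete on other chromosomes either. The peak chr15:52161830-52162029 was 121822 bp from the start of Aard in the count table but 509278 bp from a RefSeq start. Distances to a RefSeq start are therefore upper limits, and the shares beyond 100 kb may be too high.

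The RNA libraries held 18297697 to 48054551 counts in controls and 12099365 to 22578480 in labelled knockouts. Glis3, the targeted gene, was higher and not lower in the labelled knockouts, at 39.5, 46.8, 31.2 and 33.5 CPM in WT 1 to 4 and 52.0, 52.7 and 57.8 CPM in KO 1 to 3. All labelled knockouts were above all controls (log2 0.52, SE 0.14, edgeR adjusted p = 0.0257). The call was lost without WT 3, WT 4, KO 1 or KO 3 (adjusted p = 0.0501 to 0.117) and with the replicate block (log2 0.48, adjusted p = 0.0505), with adjusted p from 0.00948 to 0.117 over all alternatives. The table holds no exon counts, and the deletion was not checked in any other way. Xist, the RNA of the inactive X chromosome of females, was at 235 to 270.0 CPM in 2 controls and 2 labelled knockouts and at most 0.426 CPM in the other 3 libraries, so both groups held both kinds. Summed levels of acinar markers were 1059 to 6790 CPM in controls and 3482 to 18300 CPM in labelled knockouts, those of duct markers 622 to 699 and 1325 to 1670.0 CPM, and those of mesenchymal markers 537 to 650 and 762 to 978 CPM. Of the tested markers, 2 of 28 acinar (7.14%), 2 of 12 duct (16.7%) and 4 of 12 mesenchymal ones (33.3%) rose and none fell. Of all tested genes 8.73% were higher. Among endothelial markers 0 of 13 were called, and among 11 immune markers 1 was lower and 1 higher. The part of these cell types in the results below was not tested.

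Of the genes tested beside the peaks, 21.5% were called, in both directions. The genes next to a peak on its left and right came to 1042, or 4.07% of the 25611 genes in the table; 235 of these had no count in any library, and 633 passed the filter on low counts and were tested. Of the 633, 52 were lower in the labelled knockouts, 84 were higher and 497 did not pass the test (edgeR quasi-likelihood F test, adjusted p under 0.05 over all genes). The 136 called made 21.5%, against a background of 14.0% of all 14529 tested genes, and at an adjusted p under 0.01 the 77 called made 12.2%, against 7.34%. Lower calls were 8.21%, against 5.25% of all genes, and higher calls 13.3%, against 8.73%. The median log2 change was 0.03, against 0.01 over all tested genes, and 203 of the 633 (32.1%) showed no overlap between the 2 groups' levels, against 26.6%. The difference between these shares was not tested. Scaling by library size alone moved the median of all genes from 0.007 to 0.175 on the log2 scale, and then 29 flanking genes were lower and 109 higher, and 324 of all genes were lower and 1854 higher in place of 763 and 1268.

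**Figure D3:**
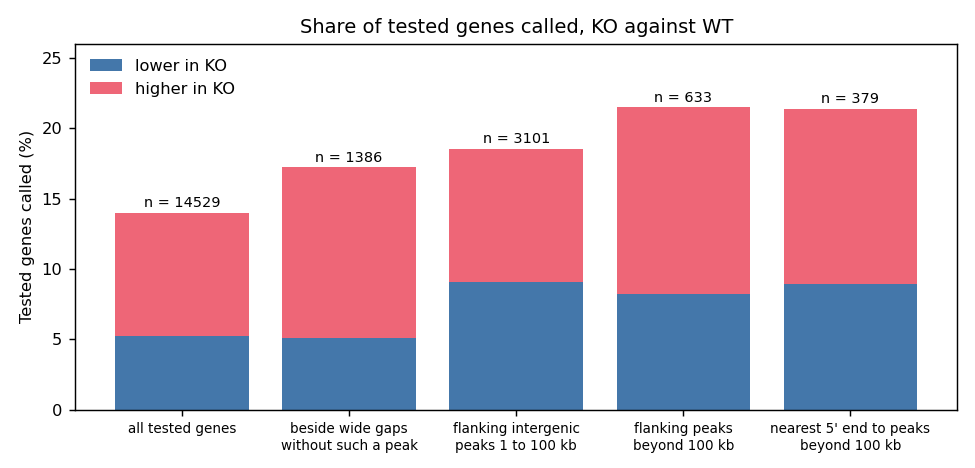
Percentage of tested genes called lower (blue) or higher (red) in the labelled knockouts, stacked, for all genes and for 4 sets of genes chosen by position, with the number tested above each bar. The bar of genes flanking peaks beyond 100 kb reaches 21.5%, against 14.0% for all tested genes and 17.2% for genes beside wide gaps without such a peak.

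Other sets of genes stood between these values. Genes beside a wide gap without such a peak were called in 17.2% (71 lower and 168 higher of 1386 tested), and those beside a wide gap with no Glis3 peak of any class in 16.1% of 936. Genes flanking intergenic peaks 1 to 100 kb from a start were called in 18.5% (282 lower and 293 higher of 3101). The share called rose with level in flanking genes and in all genes. Among genes with a mean of 10 to 100 CPM over all libraries, 26.5% of the flanking genes were called, against 16.0% of all genes, and above 100 CPM 40.8%, against 31.0%. From 1 to 10 CPM the shares were 12.9% and 8.97%, and under 1 CPM they were 4.48% and 4.45%. Tested flanking genes had a median control level of 14.9 CPM, close to the 15.1 CPM of all tested genes and above the 9.83 CPM of tested genes beside gaps without such a peak.

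Many flanking genes also had a Glis3 peak at their own start. Of the 1042, 474 (45.5%) had a peak of any class within 1 kb of their own 5' end. With such a peak 44 of 438 tested were lower and 53 higher (22.1% called, against 13.6% of all genes with one). Without it 8 of 195 were lower and 31 higher (20.0%, against 14.9% of all genes without one). Over all tested genes the counts were 621 lower and 785 higher with such a peak and 142 lower and 483 higher without it. Of the called genes named below, Ins1, Nkx6-1, Slc30a8, Npy, Isl1, Meis1, Glis3, Lrrn1, Pcdh15, Dnajc24, Satb1, Slc4a7 and Sorl1 had such a peak. Fam46a, Foxp2, Brinp2, Fstl5, Adcy2, Barx2, Cnr1, Cxcl12, Fancf, Galnt18, Pid1 and Rybp had one too. Pcsk1, Gc, Irx1, Gata6, Csmd3, Opcml, Vegfa, Edn3, Thy1, Gramd3, Kcnj3, Sgcd, Stc2 and Tmem45b had none. The number of far peaks beside a gene showed no steady order: 20.3% were called with 1 peak, 17.6% with 2 and 28.8% with 3 or more (18 lower and 18 higher of 125). By distance, 19.6% were called where the nearest such peak was 100 to 200 kb from the gene's 5' end, 21.3% at 200 to 500 kb and 28.6% beyond 500 kb (7 lower and 19 higher of 91). Where the gene's 5' end faced the peak 21.9% were called, and where the 3' end did 21.2%. Of the peaks themselves, 242 (26.3%) had at least 1 called flanking gene, a share that was not worked out for other classes of peaks. The genes with the nearest 5' end, 633 different genes, gave 34 lower and 47 higher of 379 tested (21.4%).

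Genes of islet transcription factors often bordered these gaps. Of a list of 50, 24 bordered a wide gap and 15 of those (62.5%) bordered one that held a peak, against 29.1% of all 3580 genes beside wide gaps. For the list of beta cell identity and glucose sensing the count was 5 of 7, and for growth factors and morphogens 17 of 42. It was 39 of 97 for neuronal adhesion and axon guidance and 38 of 95 for developmental transcription factors. For receptors and channels of excitable cells it was 14 of 58. These lists share genes, and the shares are a description. Among cell type markers beside a wide gap, 3 of 4 mesenchymal ones (Col1a2, Pdgfra and Thy1) bordered one with a peak. So did 1 of 2 duct markers (Slc4a4), 1 of 3 endothelial markers (Kdr), and 3 of 5 each of the alpha and delta cell markers. Only 2 of 32 acinar and 0 of 15 immune markers lay beside any wide gap, and none of these flanked a peak. Of the 15 islet transcription factor genes, all tested, 4 were lower, 2 were higher and 9 did not pass, with a median log2 change of −0.03. Of all 45 tested islet transcription factor genes, 8 were lower and 5 higher (28.9% called, against the background of 14.0% of all genes), with a median of −0.12. Of 28 tested developmental transcription factor genes beside the peaks 5 were lower and 5 higher, and of all 83 on that list 22.9% were called. Of 32 tested genes of neuronal adhesion 3 were lower and 6 higher, and of all 90 on that list 26.7% were called.

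The islet transcription factors that fell were Nkx6-1, Meis1, Irx1 and Gata6. Nkx6-1, a homeodomain gene of beta cells (chr5:101659197-101664711, minus strand), stood at 187, 214, 253 and 190.3 CPM in WT 1 to 4 and 70.9, 122 and 79.7 CPM in KO 1 to 3. Every labelled knockout was below every control (2.32-fold lower; log2 −1.21, SE 0.18, edgeR adjusted p = 0.000535). The far peak beside Nkx6-1 (chr5:101497226-101497425) lay 162 kb past its 3' end, in the gap that ends at Gpat3. Another Glis3 peak lay within 1 kb of its 5' end. Meis1, a homeodomain gene of the TALE class, was at 12.9, 15.4, 20.0 and 15.8 CPM in WT 1 to 4 and 6.53, 8.16 and 10.9 CPM in KO 1 to 3. The groups did not overlap (log2 −0.90, SE 0.22, edgeR adjusted p = 0.0138), and the peak lay 2.55 kb past the 3' end, 141 kb from the 5' end. That peak is the one whose bases at the start of 8430419K02Rik are printed above. Irx1, an Iroquois gene listed here with alpha cell genes as well, had 3 peaks in the gap of its 5' end and 2 in the gap past its 3' end, and stood at 27.9, 24.6, 49.6 and 45.8 CPM in WT 1 to 4 and 17.3, 25.9 and 19.1 CPM in KO 1 to 3. KO 2 was above WT 2, so the groups overlapped (log2 −0.82, SE 0.25, edgeR adjusted p = 0.0462). The highest values were in WT 3 and WT 4, the controls with little Xist, while KO 3, the labelled knockout with little Xist, was at 19.1 CPM. The call of Irx1 was lost without WT 3, WT 4, KO 1, KO 2 or KO 3 (adjusted p = 0.0528 to 0.167), under scaling by library size alone (log2 −0.61, adjusted p = 0.0629), with no filter on low counts (log2 −0.83, adjusted p = 0.0567), in limma-voom (log2 −0.69, adjusted p = 0.1), with the replicate block (log2 −0.66, adjusted p = 0.081) and with a term for Xist reads (log2 −0.67, adjusted p = 0.055), with adjusted p from 0.00825 to 0.167 over all alternatives. Gata6, a zinc finger gene of early pancreas, was at 23.6, 22.2, 28.3 and 22.8 CPM in WT 1 to 4 and 19.8, 13.0 and 14.6 CPM in KO 1 to 3 with 2 peaks beside it. Its groups did not overlap (log2 −0.62, SE 0.17, edgeR adjusted p = 0.0289), but the call was lost without WT 1, WT 3, KO 2 or KO 3 (adjusted p = 0.0514 to 0.0951) and under scaling by library size alone (log2 −0.44, adjusted p = 0.184), with adjusted p from 0.00826 to 0.184 over all alternatives.

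Isl1 and Glis3 were the islet transcription factors that rose. Isl1, a LIM homeodomain gene of islet endocrine cells, had 2 peaks in the gap of its 5' end, which reaches to Parp8, the nearer 309 kb away, and 4 in the gap past its 3' end, toward Itga1. It stood at 150.0, 148, 154 and 129.8 CPM in WT 1 to 4 and 237, 249.8 and 238 CPM in KO 1 to 3. The labelled knockouts were close together and all above the controls (1.66-fold; log2 0.73, SE 0.11, edgeR adjusted p = 0.000648). Glis3 itself flanked 1 peak (chr19:28117314-28117513), 141 kb past its 3' end and 106 kb upstream of Rfx3, a gene of cilia and islet cells. Rfx3 stood at 27.7 ± 1.05 CPM in the controls (SD, n = 4) and 27.9 ± 2.40 CPM in the labelled knockouts (SD, n = 3) (log2 0.01, SE 0.13, edgeR adjusted p = 0.972). The remaining islet factors did not pass: Foxa2 was at 128 ± 12.6 CPM in the controls (SD, n = 4) and 99.1 ± 14.2 CPM in the labelled knockouts (SD, n = 3) without overlap (log2 −0.36, SE 0.13, edgeR adjusted p = 0.085), and Bach2, with 4 peaks, was at 1.04 ± 0.225 CPM in the controls (SD, n = 4) and 2.96 ± 1.24 CPM in the labelled knockouts (SD, n = 3) (log2 1.5, SE 0.48, edgeR adjusted p = 0.0542). Foxa2 passed in 2 of its alternatives (adjusted p from 0.0438 to 0.53 over all), and Bach2 in 4 (0.0141 to 0.186). Insm1, Klf4, Etv1, Meis2, Myt1l and Tshz1 had log2 values from −0.25 to 0.30 and adjusted p from 0.187 to 0.927.

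All 5 genes beside these peaks from the list of beta cell identity and glucose sensing passed the test, 3 lower and 2 higher. Of all 27 tested genes of that list, wherever they lie, 14 were lower and 6 higher (74.1% called, against 14.0% of all genes). Ins1, one of the mouse insulin genes, stood at 99610, 97060, 148400 and 169200 CPM in WT 1 to 4 and 35940, 43930 and 76570 CPM in KO 1 to 3. The labelled knockouts were all below the controls (2.46-fold lower; log2 −1.30, SE 0.28, edgeR adjusted p = 0.00751). Its near copy Ins2 may have shared reads with it. The far peak (chr19:51941292-51941491) lay 323 kb upstream of Ins1, in the gap that begins at Sorcs1. Ins1 also had a Glis3 peak within 1 kb of its own 5' end, as did Slc30a8 and Npy, while Pcsk1 had none. Slc30a8, which encodes the zinc transporter of insulin granules, was at 609, 571, 558 and 559.9 CPM in WT 1 to 4 and 298, 236 and 356 CPM in KO 1 to 3, without overlap (1.94-fold lower; log2 −0.95, SE 0.14, edgeR adjusted p = 0.000545). The peak lay 134 kb upstream of it. Pcsk1, the gene of prohormone convertase 1, which cuts proinsulin, rose from 217 ± 5.75 CPM in the controls (SD, n = 4) to 602 ± 44.5 CPM in the labelled knockouts (SD, n = 3) (log2 1.47, SE 0.11, edgeR adjusted p = 1.85e-06), with 1 peak 409 kb past its 3' end. Npy, the neuropeptide Y gene, was at 23.4, 20.6, 30.1 and 22.5 CPM in WT 1 to 4 and 109, 88.8 and 96.9 CPM in KO 1 to 3. All labelled knockouts were above all controls (4.08-fold; log2 2.03, SE 0.14, edgeR adjusted p = 9.08e-07), and 1 peak lay 128 kb upstream and 1 in the gap past the 3' end. In whole islets fewer cells of a type and less RNA per cell cannot be told apart.

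Among the alpha and delta cell markers beside these peaks, Gc, Kcnj3, Isl1 and Pcsk1 rose, Irx1 fell and Etv1 did not pass. Isl1 and Pcsk1, listed here as delta cell markers, were also counted above, Isl1 as an islet factor and Pcsk1 with the beta cell genes. Neither is particular to delta cells. The whole lists went both ways: of 13 tested alpha cell markers 3 were lower, 5 were higher and 5 did not pass (median log2 0.006), and of 11 delta cell markers 1 was lower, 4 were higher and 6 did not pass (median 0.12). Gc, the vitamin D binding protein gene that alpha cells use, stood at 98.8, 81.6, 86.9 and 92.4 CPM in WT 1 to 4 and 450.3, 415 and 386 CPM in KO 1 to 3. The groups were far apart (4.63-fold higher; log2 2.21, SE 0.12, edgeR adjusted p = 1.36e-07), and its 1 peak lay in the gap toward the duct marker Slc4a4, 118 kb past the 3' end of Gc. Kcnj3, a gene of a G protein-gated potassium channel, went from 2.46 ± 0.432 CPM in the controls (SD, n = 4) to 5.58 ± 0.930 CPM in the labelled knockouts (SD, n = 3) (log2 1.17, SE 0.31, edgeR adjusted p = 0.0204). Its call was lost without WT 2, WT 3 or KO 1 (adjusted p = 0.0547 to 0.0579), with adjusted p from 0.00216 to 0.0579 over all alternatives.

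Of 14 tested growth factor and morphogen genes beside the peaks, 2 were lower, 3 were higher and 9 did not pass; of all 58 tested on that list, 4 were lower and 11 higher (25.9% called). Edn3, the endothelin 3 gene, stood at 18.6, 19.2, 14.4 and 22.6 CPM in WT 1 to 4 and 2.75, 11.1 and 9.12 CPM in KO 1 to 3. Its groups did not overlap, with KO 1 lowest (2.41-fold lower; log2 −1.27, SE 0.35, edgeR adjusted p = 0.0325). The call of Edn3 was lost without WT 1, WT 2, WT 4 or KO 3 (adjusted p = 0.0581 to 0.0694) and with no filter on low counts (log2 −1.28, adjusted p = 0.061), with adjusted p from 0.00178 to 0.0694 over all alternatives. Vegfa, the vascular growth factor gene, had 3 peaks in its gap and was at 338 ± 31.8 CPM in the controls (SD, n = 4) and 238 ± 5.51 CPM in the labelled knockouts (SD, n = 3) (log2 −0.51, SE 0.12, edgeR adjusted p = 0.0128), a call lost under scaling by library size alone (log2 −0.35, adjusted p = 0.165), with adjusted p from 7.66e-05 to 0.165 over all alternatives. Cxcl12, a chemokine gene, rose from 9.65 ± 1.80 CPM in the controls (SD, n = 4) to 20.1 ± 6.51 CPM in the labelled knockouts (SD, n = 3) (log2 1.06, SE 0.23, edgeR adjusted p = 0.00759). Stc2, the stanniocalcin 2 gene, which is not on that list, was at 0.139, 0.0583, 0 and 0.191 CPM in WT 1 to 4 and 1.26, 4.28 and 0.576 CPM in KO 1 to 3. KO 2 held most of its counts (log2 4.33, SE 0.92, edgeR adjusted p = 0.00614), and without KO 2 the log2 change was 3.15 and the call was lost (adjusted p = 0.0834; 3.41e-05 to 0.0834 over all alternatives). The peak beside Stc2, 189.6 kb past its 3' end, is the one shown above at the start of Gm40822.

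Csmd3, Opcml, Brinp2 and Fstl5 were among the genes with large rises beside these peaks, and the controls had few counts of Csmd3 and Opcml. Csmd3, a gene of a large membrane protein with CUB and sushi domains, was at 0.0348, 0, 0.122 and 0.0479 CPM in WT 1 to 4 and 10.5, 15.6 and 9.52 CPM in KO 1 to 3. Controls gave 4 counts in all and labelled knockouts 717 (log2 8.19, SE 0.55, edgeR adjusted p = 6.45e-07). Its 1 peak was 1669 kb upstream of its 5' end, the gene on the other side being Trps1. Opcml, a cell adhesion gene of the IgLON family, stood at 0.104, 0.195, 0 and 0.0957 CPM in WT 1 to 4 and 4.08, 7.82 and 3.37 CPM in KO 1 to 3, with every labelled knockout above every control (log2 5.40, SE 0.62, edgeR adjusted p = 5.28e-05). The fitted log2 change of both genes moved with single libraries: it was 7.46 and 8.87 for Csmd3 without WT 2 and without WT 3, and 6.00 for Opcml without WT 2, and both remained called in each alternative fit. Brinp2, a neural gene induced by BMP and retinoic acid, had 4 peaks in its gap and stood at 1.22, 0.992, 1.64 and 1.63 CPM in WT 1 to 4 and 18.1, 14.1 and 14.04 CPM in KO 1 to 3 (log2 3.52, SE 0.26, edgeR adjusted p = 1.33e-06). Fstl5, a follistatin-like gene, went from 2.54 ± 0.527 CPM in the controls (SD, n = 4) to 19.0 ± 3.29 CPM in the labelled knockouts (SD, n = 3) (log2 2.90, SE 0.23, edgeR adjusted p = 2.13e-06), with its peak 1357 kb past its 3' end.

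The 3 neuronal adhesion genes beside the peaks that fell were Lrrn1, Pcdh15 and Slitrk1, the last of which is given in the closing section. Lrrn1, a leucine-rich repeat gene, had 2 peaks in the gap toward Setmar and 3 in the gap toward Crbn, and stood at 101, 94.0, 105 and 97.6 CPM in WT 1 to 4 and 52.0, 50.5 and 50.6 CPM in KO 1 to 3. The labelled knockouts lay within 2 CPM of each other and were all about equally below the controls (1.95-fold lower; log2 −0.96, SE 0.11, edgeR adjusted p = 3.59e-05). Pcdh15, a protocadherin gene, was at 18.6, 14.00, 17.5 and 15.4 CPM in WT 1 to 4 and 8.39, 7.86 and 8.24 CPM in KO 1 to 3, again without overlap (log2 −1.003, SE 0.18, edgeR adjusted p = 0.00173). The peak of Pcdh15 lay 279 kb upstream of the 5' end in the count table, inside the longer RefSeq model of the gene. Thy1, a surface glycoprotein gene of neurons and mesenchymal cells, had 4 peaks beside it and rose from 8.39 ± 1.14 CPM in the controls (SD, n = 4) to 14.6 ± 3.76 CPM in the labelled knockouts (SD, n = 3) (log2 0.80, SE 0.22, edgeR adjusted p = 0.0245), a call lost without WT 2, WT 3, KO 1 or KO 2 (adjusted p = 0.0624 to 0.0938), with adjusted p from 0.00767 to 0.0938 over all alternatives. The summed mesenchymal markers given above were also higher in every labelled knockout than in every control.

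**Figure D4:**
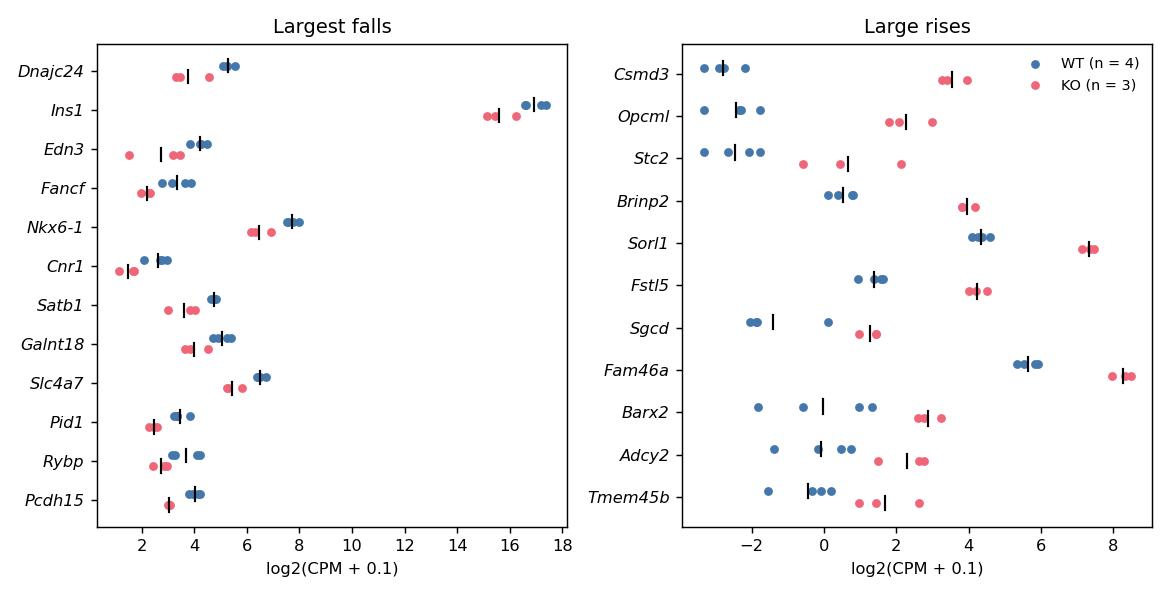
Level of the 12 flanking genes with the largest falls (left) and of 11 with large rises (right) in each library, as log2(CPM + 0.1), with controls in blue (n = 4), labelled knockouts in red (n = 3) and vertical bars at the group means. Genes were taken from those called with at least 1 CPM in a group, with predicted genes left out. In every gene shown the 2 groups do not overlap, which the rule for choosing them required, and Ins1 lies far to the right of the other falls.

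Other large falls beside the peaks were in genes of varied function. The largest falls and rises were chosen only among called genes without overlap of the groups, so their lack of overlap was set by the choice. Dnajc24, a J domain protein gene, stood at 38.1, 38.1, 46.5 and 34.4 CPM in WT 1 to 4 and 10.9, 9.72 and 23.4 CPM in KO 1 to 3. KO 3 was highest of the labelled knockouts but still under the controls (2.66-fold lower; log2 −1.41, SE 0.27, edgeR adjusted p = 0.00367). Satb1, a gene of a protein that organises chromatin, was at 28.2, 24.8, 26.5 and 27.7 CPM in WT 1 to 4 and 7.95, 14.2 and 16.1 CPM in KO 1 to 3, without overlap (log2 −1.06, SE 0.21, edgeR adjusted p = 0.00346), with 1 peak 47.2 kb past its 3' end. Slc4a7, a sodium bicarbonate cotransporter gene, had 3 peaks upstream and was at 106, 90.8, 86.9 and 82.6 CPM in WT 1 to 4 and 37.8, 39.4 and 55.7 CPM in KO 1 to 3 (log2 −1.05, SE 0.15, edgeR adjusted p = 0.000356). All labelled knockouts were below all controls, and the fitted change was 2.06-fold lower. Fancf, of the Fanconi anaemia complex (log2 −1.22), Cnr1, the cannabinoid receptor 1 gene (−1.17), Galnt18, a glycosyltransferase gene (−1.05), and Pid1 (−1.02) also fell. The call of Cnr1 was lost without WT 1, WT 2, WT 3 or KO 1 (adjusted p = 0.0561 to 0.0787) and under scaling by library size alone (log2 −1.03, adjusted p = 0.0644), with adjusted p from 0.00315 to 0.0787 over all alternatives. That of Fancf was lost in limma-voom (log2 −1.04, adjusted p = 0.0536), with adjusted p from 0.000561 to 0.0536 over all alternatives.

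Sorl1 had the smallest p among the genes named here. Sorl1, which encodes a sorting receptor of endosomes, stood at 24.1, 17.1, 19.2 and 20.6 CPM in WT 1 to 4 and 177, 164 and 140.5 CPM in KO 1 to 3. The lowest labelled knockout was several times above the highest control (7.93-fold higher; log2 2.99, SE 0.14, edgeR adjusted p = 4.25e-08). It had 2 peaks in the gap past its 3' end, 29.1 kb away at the nearest, and the other one is shown above at the start of Gm40513. Fam46a, a gene of a nucleotidyltransferase family, was at 60.3, 57.2, 40.1 and 46.6 CPM in WT 1 to 4 and 322, 251 and 361 CPM in KO 1 to 3 (log2 2.61, SE 0.17, edgeR adjusted p = 4.58e-07). Foxp2, a forkhead gene, went from 6.29 ± 2.09 CPM in the controls (SD, n = 4) to 23.0 ± 8.56 CPM in the labelled knockouts (SD, n = 3) (log2 1.89, SE 0.30, edgeR adjusted p = 0.000824). Barx2, a homeobox gene (log2 2.46), and Adcy2, an adenylyl cyclase gene (2.39), rose as well. Sgcd, a sarcoglycan gene, was at 0.174, 0.175, 0.974 and 0.144 CPM in WT 1 to 4 and 2.60, 2.63 and 1.86 CPM in KO 1 to 3, with WT 3 above the other controls (log2 2.79, SE 0.73, edgeR adjusted p = 0.0201). Without WT 3 the log2 change of Sgcd was 3.77, and its call was lost without WT 1, WT 2, WT 4 or KO 2 (adjusted p = 0.052 to 0.0633) and with the replicate block (log2 2.87, adjusted p = 0.0589), with adjusted p from 0.001 to 0.0633 over all alternatives. Tmem45b, a membrane protein gene that shares a gap and a peak with Barx2, rose by log2 2.28 (SE 0.58), or by 1.64 without KO 1. The call of Tmem45b was lost without WT 2 or KO 1 (adjusted p = 0.0503 to 0.111) and with the replicate block (log2 1.87, adjusted p = 0.0662), with adjusted p from 0.000925 to 0.111 over all alternatives.

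**Figure D5:**
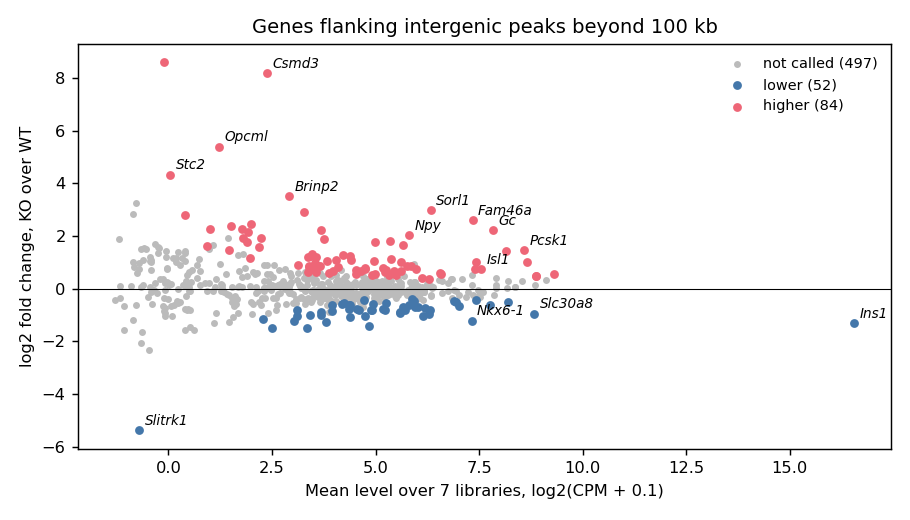
Log2 fold change, labelled knockout over control, of the 633 tested flanking genes against their mean level over all libraries as log2(CPM + 0.1), with 52 genes called lower in blue, 84 called higher in red and 497 not called in grey. The called genes lie on both sides of 0 at most levels, with the largest changes at low levels; Slitrk1, at the bottom, rests on 1 labelled knockout count.

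Of the genes at the 6 gaps with most peaks, Rybp and Gramd3 passed the test and both were lower. Rybp was at 18.5, 17.0, 9.56 and 8.90 CPM in WT 1 to 4 and 5.27, 7.65 and 7.22 CPM in KO 1 to 3. WT 3 and WT 4, the controls with little Xist, lay between the other controls and the labelled knockouts (log2 −1.01, SE 0.28, edgeR adjusted p = 0.0289). The call of Rybp was lost without WT 1, WT 2, KO 1 or KO 3 (adjusted p = 0.0626 to 0.0956), under scaling by library size alone (log2 −0.89, adjusted p = 0.0767) and in limma-voom (log2 −1.02, adjusted p = 0.057), with adjusted p from 0.00659 to 0.0956 over all alternatives. Gramd3 was at 136 ± 13.5 CPM in the controls (SD, n = 4) and 98.3 ± 20.4 CPM in the labelled knockouts (SD, n = 3) (log2 −0.47, SE 0.15, edgeR adjusted p = 0.0485) and its call was lost without WT 2, WT 3, WT 4, KO 1 or KO 2 (adjusted p = 0.0646 to 0.16), under scaling by library size alone (log2 −0.29, adjusted p = 0.199) and with the 1 CPM filter (log2 −0.46, adjusted p = 0.0502), with adjusted p from 0.0101 to 0.199 over all alternatives. Ptpru, beside 11 peaks, was at 24.9 ± 1.60 CPM in the controls (SD, n = 4) and 20.4 ± 2.74 CPM in the labelled knockouts (SD, n = 3) (log2 −0.29, SE 0.14, edgeR adjusted p = 0.217). Zfp608 was at 26.4 ± 4.61 CPM in the controls (SD, n = 4) and 22.1 ± 1.32 CPM in the labelled knockouts (SD, n = 3) (log2 −0.25, SE 0.16, edgeR adjusted p = 0.321), and with peaks in the gaps on both of its sides it flanked 12 in all. Eipr1 was at 11.2 ± 0.499 CPM in the controls (SD, n = 4) and 15.9 ± 2.04 CPM in the labelled knockouts (SD, n = 3), without overlap (log2 0.50, SE 0.17, edgeR adjusted p = 0.0636), and passed in 3 alternatives, where its adjusted p over all ran from 0.038 to 0.172. Bcor (log2 −0.18), Klf4 (−0.25) and Myt1l (−0.12) did not pass, Prok2 had 3 control and 6 labelled knockout counts, and A930031H19Rik, Actl7b and H2al1j had none.

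In 14 of the 546 gaps with a peak the genes on both sides were called, in 116 one was, in 334 neither, and in 82 neither gene was tested. Of tested flanking genes 21.5% were called, against 14.0% of all tested genes. Gaps without such a peak were not counted in this way, so the pairs below are a description. Both genes were higher in 7 of the 14 gaps, both lower in 1 (Sphkap and Pid1), and in 6 they went opposite ways. Between Rasgrf2 (log2 1.76), a Ras exchange factor gene, and Msh3 (0.74), a mismatch repair gene, 1 peak lay between 2 genes that rose. By RefSeq that peak was inside the longer model of Rasgrf2 and 337 bp from a RefSeq start. Sec16b (0.51) and Brinp2 (3.52), Srrm4 (1.21) and Suds3 (0.38), Tle4 (0.90) and Psat1 (0.83), Sgcd (2.79) and Rack1 (0.48), Tmem45b (2.28) and Barx2 (2.46), and 3110039I08Rik (1.19) and Sorl1 (2.99) were the other pairs that rose. The 3 peaks between Il3ra (1.27) and Slc4a7 (−1.05), and the 1 between Aard (0.71) and Slc30a8 (−0.95), lay between genes called in opposite directions. So did the 7 peaks between Tle3 (−0.91), a Groucho corepressor gene, and Rplp1 (0.55), the 4 between Nectin1 (−0.58) and Thy1 (0.80), the 3 between Stxbp6 (−0.58) and Nova1 (0.52), and the 1 between Gm4791 (−1.48) and Cadm1 (1.13).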

How the data were processed

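Counts per gene (RNA-seq) and 1 peak list (ChIP-seq) were used as the authors deposited them. The values were whole-number counts, unnormalised, with mm10 coordinates per the file headers, and the peaks were 200 bp intervals without a score. The submitters' processing notes name cutadapt 1.2.1, Bowtie 1.2, Picard 1.110, HOMER 4.9.1, bedtools 2.24.0, STAR 2.5, featureCounts 1.5.0-p1 and DESeq2, with no roles or settings; strand use and peak threshold are not given in the sources used. Overlapping genes may share reads. The table had 25611 rows, 988 of them repeating a symbol (6 among the flanking genes).

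Peak midpoints were sorted by gene span and 5' end (strand-aware), and 4 peaks on contigs without a gene were left out. Counts were filtered with filterByExpr, scaled with TMM and tested with edgeR 4.0.16 (quasi-likelihood F test, robust; R 4.3.3), KO against WT, with Benjamini-Hochberg adjustment over all 14529 tested genes. SE is the absolute log2 change divided by the square root of F. CPM are TMM-scaled counts per 1000000. The fit was tested on simulated data.

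Same-numbered libraries deviated together (correlations 0.117 to 0.173 over 3 pairs; WT 4 and KO 3, of unlike number, had 0.157), so by the limit of 0.1 the numbers were taken to pair them from these values and not from the labels (Xist stood at 235 to 270.0 CPM in numbers 1 and 2 of both groups, and at 0.426 in WT 3 and 0.221 CPM in KO 3); a fit with the replicate block is given where it changes a call. The main values and calls come from the fit without the block. In the block WT 4 has no labelled knockout of its number, so it does not inform the log2 change there. The term for Xist reads was added after seeing the data. The peaks, gene lists and naming rule were chosen with earlier results of these data known. Named were the 12 largest falls and rises (called, no overlap, at least 1 CPM in a group, no predicted genes), up to 4 called genes per list, islet factor and beta cell genes, and flanks of the 5 farthest peaks and of the gaps with most peaks (6 by ties); pairs of called genes around a gap, and other genes in the closing section, were chosen after their values were seen. Of the genes this rule gives, 1 is not reported here. No genome sequence was used, so peak sequences came from RefSeq start windows only. As alternatives, scaling used RLE factors or library size alone, filters were none or 1 CPM in 3 libraries, and fits were DESeq2 1.42.0, limma-voom (limma 3.58.1), the block, an adjusted p under 0.01, leaving out the 10 most abundant genes or each library, and other distance and chain limits.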

Additional observations from a re-analysis of the deposited data

Results flagged for a closer look

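Among 57 groups of 4 control values, 1 per named gene tested, 4 (7.02%) had a library far from the other 3 by Dixon's test, which flags about 5% by chance. Sgcd stood at 0.974 CPM in WT 3, above the other controls. Etv1 stood at 39.9 CPM in WT 3, above the others. Pid1 stood at 14.1 CPM in WT 1, above the others. Bcor stood at 37.3 CPM in WT 2, below the others.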

How the results depend on the processing

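Of 57 named genes tested, 40 were called; 26 of these were called in every alternative fit and 14 lost the call at least once, as given beside each. The replicate block ended the calls of Glis3 (log2 0.48, adjusted p = 0.0505), Irx1 (-0.66, 0.081), Sgcd (2.87, 0.0589) and Tmem45b (1.87, 0.0662), and changed no other call among the named genes; it gave 134 flanking genes called (21.2%) and 2188 of all genes. With a term for Xist reads 147 flanking genes were called (23.2%). Called flanking genes were 100 to 123 (15.9% to 19.0%), genes with the nearest 5' end 59 to 73 and all genes 1475 to 1850 (10.3% to 12.7%) when 1 library was left out. At an adjusted p under 0.01 they were 77 (12.2%), 46 (12.1%) and 1067 (7.34%). The median log2 change of flanking genes was 0.034; it was 0.208 scaled by library size alone, -0.0052 with no filter, 0.021 with the 1 CPM filter, -0.0022 in limma-voom, -0.0095 with the replicate block, 0.026 without the 10 most abundant genes, and -0.0051 to 0.026 leaving out 1 library. A limit of 50 kb gave 1677 peaks, 222 called flanking genes (19.0%) and a median of -0.0011, and a limit of 200 kb gave 404 peaks, 71 called (25.7%) and a median of 0.066; keeping chains gave 989 peaks. Some uncalled genes changed sign: Acvr2a (0.027 by library size alone, -0.241 to 0.028 leaving out 1 library), Myt1l (0.053 by library size alone), Meis2 (0.167 by library size alone, 0.086 with the block, 0.059 with the Xist term, and -0.129 to 0.049 leaving out 1 library), Pcdh19 (-0.015 without KO 3, to 0.606) and Rfx3 (-0.0044 with no filter, -0.0030 in limma-voom, -7.8e-05 without the 10 most abundant genes, and -0.059 to 0.062 leaving out 1 library). The causes were not tested. The printing of whole peak sequences, and motif searches in wider windows, were not run, since no genome sequence was used. Depth limits genes at a few counts: 235 flanking genes had none in any library, and for Csmd3 the controls allow only a rough ratio.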

Other observations

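Further genes beside these peaks, chosen after their values were seen, were regulators and neural genes. Tle3, a Groucho corepressor gene with 7 peaks in the gap toward Rplp1 and no Glis3 peak within 1 kb of its start, stood at 52.9, 70.2, 59.8 and 58.0 CPM in WT 1 to 4 and 25.3, 33.4 and 36.9 CPM in KO 1 to 3, with every labelled knockout below every control (log2 −0.91, SE 0.15, edgeR adjusted p = 0.00087). Tle4, a gene of the same family with 3 peaks beside it, was at 6.69, 5.23, 6.64 and 6.84 CPM in WT 1 to 4 and 15.9, 8.77 and 10.9 CPM in KO 1 to 3, all labelled knockouts above the controls (log2 0.90, SE 0.24, edgeR adjusted p = 0.0206). Bcl11a, a zinc finger gene, was at 9.06, 9.02, 10.2 and 9.48 CPM in WT 1 to 4 and 17.97, 13.5 and 12.4 CPM in KO 1 to 3 (log2 0.63, SE 0.19, edgeR adjusted p = 0.0374). Its labelled knockouts all lay above the controls.

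Lrrtm4, a synaptic adhesion gene with 3 peaks past its 3' end, was at 1.46, 1.85, 1.22 and 1.29 CPM in WT 1 to 4 and 5.72, 8.64 and 5.49 CPM in KO 1 to 3 (log2 2.17, SE 0.33, edgeR adjusted p = 0.000535). Cadm1, an adhesion gene of islets and neurons, was at 28.5, 18.9, 31.5 and 30.3 CPM in WT 1 to 4 and 70.5, 47.2 and 60.9 CPM in KO 1 to 3 (log2 1.13, SE 0.18, edgeR adjusted p = 0.000797). Neither showed overlap of the groups. Bdnf, the brain-derived neurotrophic factor gene, was at 0.732, 1.32, 0.791 and 0.957 CPM in WT 1 to 4 and 2.15, 4.19 and 2.52 CPM in KO 1 to 3, without overlap (log2 1.62, SE 0.47, edgeR adjusted p = 0.034), its peak 164 kb upstream. Tenm4, a teneurin gene whose peak lay 1902 kb upstream, was at 7.59, 8.40, 6.33 and 8.81 CPM in WT 1 to 4 and 16.04, 17.5 and 8.68 CPM in KO 1 to 3 (log2 0.85, SE 0.24, edgeR adjusted p = 0.0326). KO 3 of Tenm4 lay under the highest control. Slitrk1, a neuronal transmembrane gene, stood at 0.662, 1.42, 0.791 and 0.670 CPM in WT 1 to 4 and 0, 0 and 0.0443 CPM in KO 1 to 3, every control above every labelled knockout (edgeR adjusted p = 0.00707). It had 119 control counts and 1 labelled knockout count, a 60.0-fold ratio (95% interval 10.6 to 2390, for counting error only).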
